A study of Mus musculus with 6 samples.

Results

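Succinate dehydrogenase (SDH, respiratory complex II) is described here by the transcripts of its 4 subunits, Sdha, Sdhb, Sdhc and Sdhd, and of its 4 assembly factors, Sdhaf1, Sdhaf2, Sdhaf3 and Sdhaf4, in mouse liver. The members were chosen by gene symbol, and all 8 were found among the 22173 symbols of the deposited expression table. Livers came from 3 mice treated with DDK, a small molecule that the series title calls a limonoid, and from 3 vehicle-treated mice. All 6 mice were wild type, started the HFHC diet at 6 weeks of age and ate it for 16 weeks, and received DDK or vehicle during the last 4 of those weeks. The diet is named only by its abbreviation, and the sources used here give neither the sex and strain of the mice nor the dose. The title of the series concerns SDHA deacetylation and SDH activity in metabolic dysfunction-associated steatohepatitis, and only transcript levels were measured in these data.

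SDH is the one enzyme shared by the tricarboxylic acid (TCA) cycle and the respiratory chain: it oxidises succinate to fumarate and hands the electrons to ubiquinone (coenzyme Q). SDHA carries the covalently bound FAD and the succinate site, SDHB holds the iron-sulfur clusters that conduct the electrons, and SDHC and SDHD anchor the enzyme in the inner mitochondrial membrane and form the ubiquinone site. The assembled enzyme holds the subunits in equal number, and all of them are encoded in the nucleus. SDHAF2 promotes the attachment of FAD to SDHA and SDHAF4 binds free SDHA before assembly, while SDHAF1 and SDHAF3 assist the maturation of SDHB, roles worked out largely in yeast, flies and human cells.

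The promoters of the subunit genes that changed are printed here because a pair of them lie head to head with another gene, and the values of both partners are given further on. RefSeq promoter windows (build GRCm38.p6, 250 bases before to 50 bases after the start site) were found for 7 of the 8 members, Sdhc being the other. A set of 4 short motifs was searched on both strands, with capitals marking every match: GCGCA and GCGC with any 1 base between them (nuclear respiratory factor 1, NRF1), CCGGAAG (ETS family, including the GABP factor), GGGCGG (SP1) and AAGGTCA (estrogen-related receptors). The sequences read 5′ to 3′ along the gene's strand.
Sdha, minus strand, chr13:74350191-74350490: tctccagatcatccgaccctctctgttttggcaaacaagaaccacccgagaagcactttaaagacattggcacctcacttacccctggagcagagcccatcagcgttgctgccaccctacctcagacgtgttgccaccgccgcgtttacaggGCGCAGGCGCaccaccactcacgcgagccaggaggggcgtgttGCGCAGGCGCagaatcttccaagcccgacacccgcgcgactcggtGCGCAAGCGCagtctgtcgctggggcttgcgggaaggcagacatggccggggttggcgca
Sdhb, plus strand, chr4:140961021-140961320: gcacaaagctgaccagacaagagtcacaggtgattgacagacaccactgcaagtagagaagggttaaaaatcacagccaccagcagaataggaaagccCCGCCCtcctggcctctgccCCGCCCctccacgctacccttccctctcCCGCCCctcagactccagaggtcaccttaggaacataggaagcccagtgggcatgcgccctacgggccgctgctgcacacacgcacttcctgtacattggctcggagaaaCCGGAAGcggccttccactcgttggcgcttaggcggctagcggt
Sdhd, minus strand, chr9:50603800-50604099: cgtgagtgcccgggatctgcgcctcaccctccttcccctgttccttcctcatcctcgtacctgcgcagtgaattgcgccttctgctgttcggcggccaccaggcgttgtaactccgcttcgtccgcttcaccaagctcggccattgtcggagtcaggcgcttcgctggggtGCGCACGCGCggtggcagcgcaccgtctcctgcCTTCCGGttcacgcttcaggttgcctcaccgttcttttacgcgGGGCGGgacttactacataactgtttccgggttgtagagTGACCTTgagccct
All 3 matches in the Sdha window were to the NRF1 motif, beginning at -98, -55 and -10 relative to the start site. At least 1 NRF1 match was found in 4.60% of the 32851 windows of all genes, and 3 or more in 0.0974%. The Sdhb window held 3 SP1 matches and 1 ETS match and no NRF1 match. The Sdhd window held 1 match to each of the 4 motifs. ETS, SP1 and estrogen-related receptor matches were found in 8.86%, 35.7% and 4.72% of all windows. No matches overlapped in these 3 windows. Assembly factors, which did not pass the test below, held such matches too. NRF1 matches lay in the windows of Sdhaf3 and Sdhaf4, and SP1 matches in those of Sdhaf1, Sdhaf2, Sdhaf3 and Sdhaf4. A match describes the letters only.

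Expression was given as FPKM, fragments scaled by gene length and by the library's total. Levels of different genes can be compared per length only as far as the lengths used hold. The totals behind the FPKM values were 26576291 to 30237490 fragments in DDK libraries and 33963898 to 36105315 in vehicle libraries. Of 10681 genes that passed a filter on low values, 40.5% differed between DDK and vehicle at an adjusted p under 0.05 (limma on log2(FPKM + 1), Benjamini-Hochberg over all genes), 10.2% being higher and 30.3% lower in DDK. The log2 fold changes of all genes had a median of -0.23. On the first principal component, vehicle replicate 1 (14.1) lay nearer to the DDK livers (-36.4 to -23.6) than the other vehicle livers did (36.2 and 40.0). All 8 hepatocyte markers were expressed. The summed FPKM of 10 macrophage markers was 184 to 464 in DDK livers and 612 to 998 in vehicle livers, with 7 lower in DDK and 0 higher, and that of 8 stellate cell and fibroblast markers was 59.8 to 83.9 in DDK and 134 to 174 in vehicle, with 6 lower and 0 higher. The summed FPKM of 6 endothelial markers was 41.9 to 53.6 in DDK and 64.2 to 97.2 in vehicle, with 3 lower and 0 higher. The summed FPKM of the 8 hepatocyte markers was 53630 to 57454 in DDK and 30512 to 40629 in vehicle, with 3 higher and 2 lower. In bulk tissue, fewer cells of a type and less RNA per cell cannot be told apart. The part of these marker shifts in the SDH values was not tested.

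All 8 SDH genes passed the filter. Sdhb rose, Sdha and Sdhd fell, and Sdhc and the 4 assembly factors did not pass the test. The share of members called, 3 of 8, stood beside 40.5% of all genes. Groups did not overlap for 4 members (Sdha, Sdhb, Sdhd and Sdhaf1), beside 53.3% of all genes tested. Both shares lie near those of all genes and are no result about SDH, while the direction differed from subunit to subunit.

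**Figure D1:**
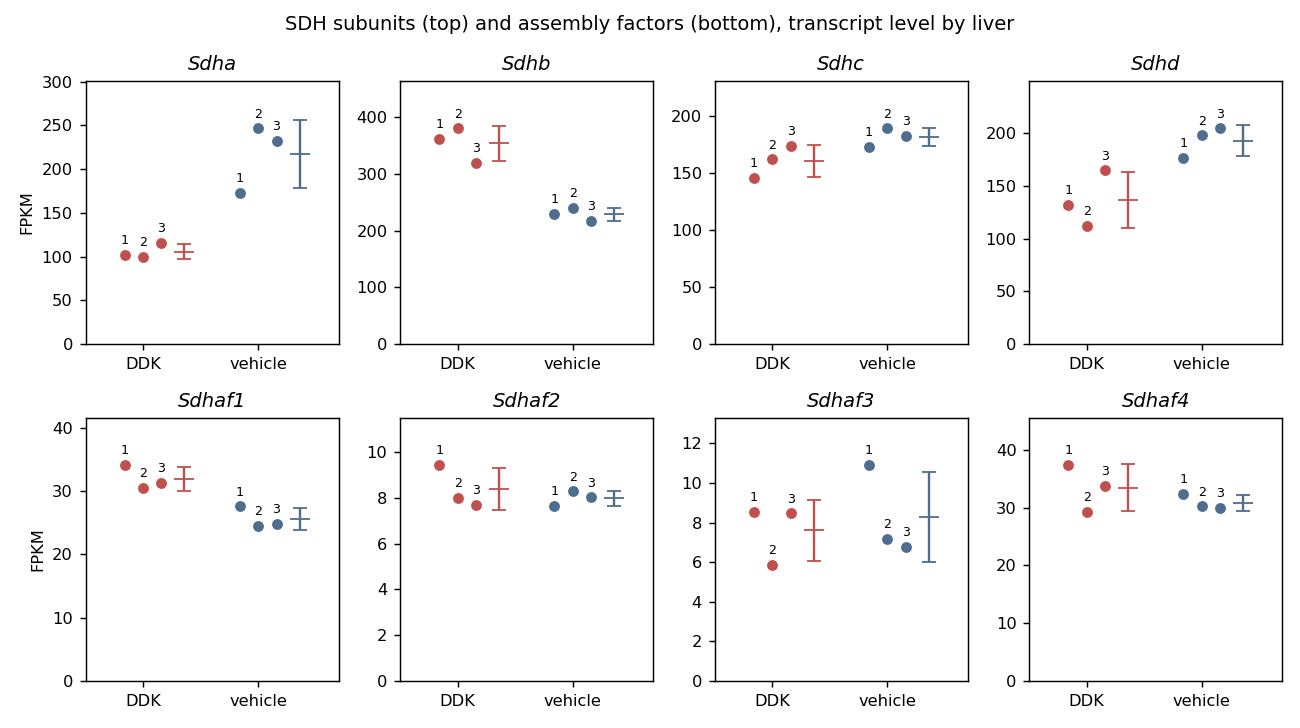
Transcript level (FPKM, linear axis) of the 4 subunits and the 4 assembly factors in each liver, DDK left and vehicle right. Points are livers with their replicate numbers, and the bars beside them show mean ± SD of 3 livers. Sdha sits at 99.3 to 115 in DDK livers and at 173 to 246 in vehicle livers, while Sdhb sits at 319.8 to 380.3 in DDK livers and at 218 to 240.1 in vehicle livers.

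Sdha, the catalytic flavoprotein (chromosome 13, 74322254 to 74350280, minus strand, GRCm38), had an FPKM of 102, 99.3 and 115 in DDK replicates 1 to 3 and of 173, 246 and 233 in vehicle replicates 1 to 3. The groups did not overlap, and the lowest vehicle liver was replicate 1. The mean in DDK was 0.486 of that in vehicle (log2 fold change -1.02 ± 0.16 SE, 95% interval -1.37 to -0.67, limma adjusted p = 0.00184). Its rank among all genes by FPKM was 658 to 755 in DDK livers and 316 to 483 in vehicle livers. The call held in all 19 alternative settings, with log2 fold changes of -1.26 to -0.73.

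Sdhb, the iron-sulfur subunit (chromosome 4, 140961203 to 140979193, plus strand), moved the other way. Its FPKM was 363, 380.3 and 319.8 in DDK replicates 1 to 3 and 230.2, 240.1 and 218 in vehicle replicates 1 to 3, again without overlap. Vehicle replicate 1 stood between the other vehicle livers for this gene. The mean in DDK was 1.54 times that in vehicle (log2 fold change 0.62 ± 0.13 SE, 95% interval 0.34 to 0.91, limma adjusted p = 0.00551), and the call held in all 19 alternatives (0.37 to 0.92).

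The membrane anchors followed neither. Sdhd (chromosome 9, 50596357 to 50603812, minus strand) had an FPKM of 132, 112 and 165 in DDK livers and of 176, 198 and 204 in vehicle livers. DDK replicate 3 came closest to the vehicle livers, and no values crossed. Its log2 fold change was -0.51 ± 0.16 SE (limma adjusted p = 0.0274), but the call ended in 6 of 19 alternatives: without DDK replicate 1 (adjusted p = 0.0823), DDK replicate 2 (0.123), vehicle replicate 2 (0.072) or vehicle replicate 3 (0.0982), after median-ratio scaling (0.301) and without a filter (0.0628). Sdhc (chromosome 1, 171127165 to 171150603, minus strand) had an FPKM of 146, 162 and 174 in DDK livers and of 173, 189 and 183 in vehicle livers. Its groups touched, DDK replicate 3 lying just above vehicle replicate 1, and its log2 fold change was -0.18 with a 95% interval of -0.46 to 0.10 (limma adjusted p = 0.263).

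By the deposited FPKM, the order of the subunits by level differed between the groups. In all 3 DDK livers the order was Sdhb, Sdhc, Sdhd and Sdha, with group means of 354 ± 31.1, 161 ± 13.9, 136 ± 26.5 and 105 ± 8.57 (SD, n = 3). In DDK, Sdhb stood clear of the rest, whereas the ranges of Sdhc and Sdhd and those of Sdhd and Sdha overlapped. In vehicle livers the means were 229 ± 11.3 for Sdhb, 217 ± 39.2 for Sdha, 193 ± 14.7 for Sdhd and 182 ± 8.20 for Sdhc, and each overlapped with the next. Sdha was the highest subunit in vehicle replicates 2 and 3 and, at 172.6 against 172.9 for Sdhc, the lowest in vehicle replicate 1. The gene lengths behind these values were 2859 bp for Sdha, 1079 bp for Sdhb, 1295 bp for Sdhc and 1285 bp for Sdhd. Merged exon lengths in GENCODE M21 were 4126, 2239, 3250 and 1231 bp for the same genes. The order, the shares and the gaps between subunits depend on the lengths used. With the GENCODE lengths, the fragments behind the FPKM put Sdhc lowest in every liver and Sdhd highest in all 3 vehicle livers and in DDK replicate 3. Sdha was then the lowest subunit in no liver. The shares were not computed with the GENCODE lengths.

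**Figure D2:**
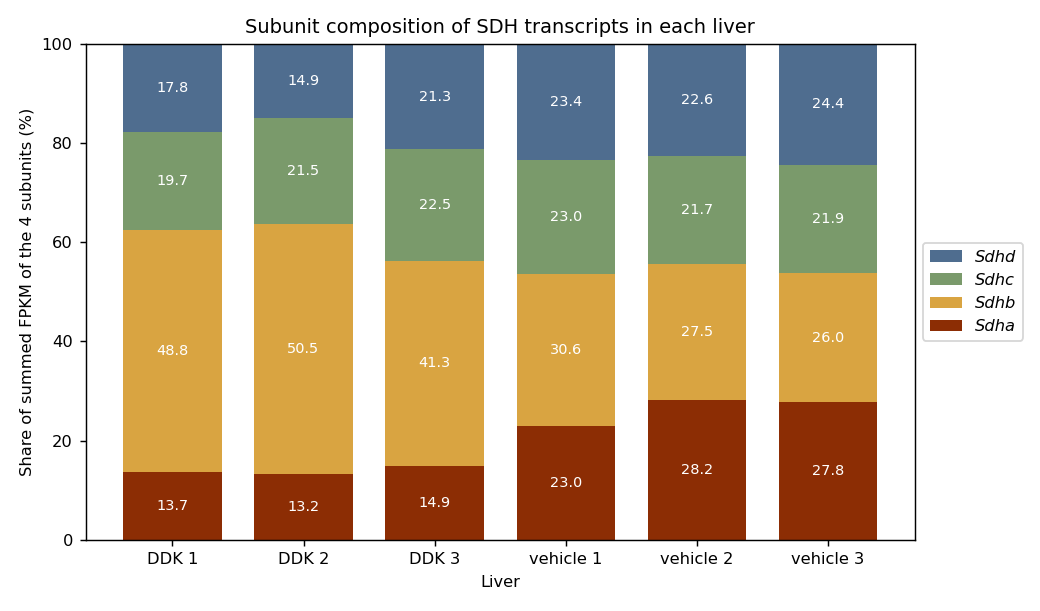
Share of each subunit (percent) in the summed FPKM of Sdha, Sdhb, Sdhc and Sdhd, 1 bar per liver, DDK livers left and vehicle livers right. Sdha holds 13.2 to 14.9% in DDK livers and 23.0 to 28.2% in vehicle livers, and Sdhb holds 41.3 to 50.5% in DDK livers and 26.0 to 30.6% in vehicle livers.

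Ratios of 2 genes within a liver do not change when that library is rescaled by a single factor, though they do under quantile normalization and length correction, and the balance of the subunits was examined liver by liver. The ratio of Sdha to Sdhb was 0.281, 0.261 and 0.360 in DDK replicates 1 to 3 and 0.750, 1.03 and 1.07 in vehicle replicates 1 to 3. Vehicle replicate 1 had the lowest ratio of the vehicle livers and still lay above every DDK liver. The log2 ratio averaged -1.75 ± 0.24 in DDK and -0.09 ± 0.28 in vehicle (SD, n = 3 each), a difference of -1.65. In an exact two-sided permutation test p was 0.10, the smallest value that 3 against 3 livers allow, so this test could not pass 0.05. All 6 pairs of subunits gave that p and did not overlap between groups (0.10 also after Benjamini-Hochberg adjustment over the 6). The 6 ratios are built from the same subunits, so they are not independent of one another. Taken singly, 53.3% of all genes tested did not overlap between groups. The share of gene pairs whose ratio did not overlap was not counted across all genes. The count of 6 therefore says nothing particular to SDH. The differences of the other 5 log2 ratios were -0.85 for Sdha to Sdhc, -0.51 for Sdha to Sdhd, 0.81 for Sdhb to Sdhc, 1.14 for Sdhb to Sdhd and 0.34 for Sdhc to Sdhd.

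The same pairs were tested in limma fits across all genes in which every gene was put relative to one subunit in its own liver. Relative to Sdha, Sdhb stood 1.64 ± 0.24 SE higher in DDK on the log2 scale (95% interval 1.11 to 2.18, adjusted p = 0.000566), Sdhc 0.84 ± 0.21 (adjusted p = 0.00431) and Sdhd 0.51 ± 0.21 (adjusted p = 0.0431). The last call ended without any single library other than vehicle replicate 1 (adjusted p = 0.0722 to 0.139). In that fit 80.9% of all genes were called, since every gene carries the change of Sdha, so the count says nothing particular to SDH. Relative to Sdhb, the log2 difference was -0.80 for Sdhc (adjusted p = 0.000343, and 0.00564 when the pair was fitted relative to Sdhc) and -1.14 for Sdhd (adjusted p = 3.03e-05), where 83.0% of all genes were called. Sdhd relative to Sdhc was -0.33 with a 95% interval of -0.71 to 0.04 (adjusted p = 0.175), with 28.0% of all genes called. All genes in such a fit share the noise of the one subunit, so the p-values depend on which subunit was chosen. With Sdhb as the base, the pair of Sdha and Sdhb gave a limma adjusted p of 3.46e-07. The pair of Sdhb and Sdhd was fitted only relative to Sdhb. That base gave the smaller p for the pairs of Sdhb with Sdha and with Sdhc.

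As shares of the summed FPKM of the 4 subunits, Sdha made up 13.7, 13.2 and 14.9% in DDK livers and 23.0, 28.2 and 27.8% in vehicle livers. Sdhb made up 48.8, 50.5 and 41.3% in DDK livers and 30.6, 27.5 and 26.0% in vehicle livers. The share of Sdhd was 14.9 to 21.3% in DDK and 22.6 to 24.4% in vehicle, and that of Sdhc overlapped, at 19.7 to 22.5% in DDK and 21.7 to 23.0% in vehicle. Exact permutation p-values were 0.10 for Sdha, Sdhb and Sdhd and 0.40 for Sdhc (0.133 and 0.40 adjusted over the 4 shares). The summed FPKM itself overlapped between groups, at 743, 754 and 773 in DDK livers and 752, 874 and 837 in vehicle livers.

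By the deposited FPKM, the highest subunit exceeded the lowest by 3.56, 3.83 and 2.77 times in DDK livers and by 1.33, 1.30 and 1.27 times in vehicle livers. On the log2 scale this gap was 1.75 ± 0.24 in DDK and 0.38 ± 0.03 in vehicle (SD, n = 3 each, exact permutation p = 0.10, the smallest possible). In every DDK liver it was the ratio of Sdhb to Sdha given above, so it is no separate result there. The lowest subunit stood at an FPKM of 99.3 to 115 in DDK livers and 173 to 189 in vehicle livers. Vehicle replicate 1 had the widest gap of the vehicle livers (1.33 times), below that of every DDK liver. Unlike the change of a single ratio between groups, this gap depends on the gene lengths used. With the GENCODE lengths and the same fragments, the gaps of the groups overlapped. The wider gap in DDK therefore holds only for the lengths behind the FPKM.

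The assembly factors were expressed far below the subunits, and 0 of the 4 passed the limma test, with 1 (Sdhaf1) at an unadjusted p under 0.05 and 0 of 4 called by voom on the recovered fragments. Sdhaf1, which protects maturing SDHB (chromosome 7, 30321406 to 30323895), had an FPKM of 34.1, 30.5 and 31.3 in DDK livers and of 27.6, 24.5 and 24.8 in vehicle livers. These groups did not overlap, and the log2 fold change was 0.31 ± 0.12 SE (95% interval 0.04 to 0.58, limma adjusted p = 0.0661). It passed after median-ratio scaling (0.59, adjusted p = 0.0117), after quantile normalization (0.48, 0.016), with library weights (0.0140) and without vehicle replicate 1 (0.0254), and stood at 0.07 after length correction (0.623).

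Sdhaf2, the flavination factor of SDHA (chromosome 19, 10500534 to 10526142), had an FPKM of 9.42, 7.98 and 7.70 in DDK livers and of 7.64, 8.28 and 8.01 in vehicle livers. These groups overlapped, with DDK replicate 1 above and vehicle replicate 1 below all other livers (log2 fold change 0.06, 95% interval -0.24 to 0.36, limma adjusted p = 0.749). It shares 877 bp with Cpsf7 on the opposite strand, and the library kit does not mark strand, so its reads and those of Cpsf7 (log2 fold change 0.23 ± 0.14 SE, limma adjusted p = 0.202) cannot be told apart there. A gene annotated on the opposite strand inside Sdhaf1 was not analysed here.

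Sdhaf4, the chaperone of free SDHA (chromosome 1, 23995939 to 24005656), had an FPKM of 37.3, 29.3 and 33.7 in DDK livers and of 32.4, 30.2 and 29.9 in vehicle livers (log2 fold change 0.11, 95% interval -0.18 to 0.40, limma adjusted p = 0.524). Sdhaf3, a partner of SDHB maturation (chromosome 6, 6956004 to 7042979), had an FPKM of 8.54, 5.84 and 8.46 in DDK livers and of 10.9, 7.19 and 6.75 in vehicle livers. Its groups overlapped, and its log2 fold change was -0.10 with the widest interval of the 8 genes, -0.55 to 0.35 (limma adjusted p = 0.72). It was also the least deeply covered member, with 105 to 173 fragments in DDK and 155 to 266 in vehicle libraries, whereas Sdha had 7545 to 9965 in DDK and 17821 to 24076 in vehicle.

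With Sdha lower and its factors near level, the factors of SDHA stood in a different proportion to it. Sdhaf2 amounted to 9.24, 8.04 and 6.68% of Sdha in DDK livers and to 4.42, 3.36 and 3.45% in vehicle livers. Sdhaf4 amounted to 36.6, 29.5 and 29.2% of Sdha in DDK livers and to 18.8, 12.2 and 12.8% in vehicle livers. For the factors of SDHB the proportion lay the other way. Sdhaf1 amounted to 8.03 to 9.78% of Sdhb in DDK livers and 10.2 to 12.0% in vehicle livers, and Sdhaf3 to 1.54 to 2.65% in DDK and 2.99 to 4.73% in vehicle. None of these 4 proportions overlapped between groups, and they were not tested. The share of all genes whose proportion to Sdha or Sdhb did not overlap was not counted. In limma fits, 80.9% of all genes were called relative to Sdha and 83.0% relative to Sdhb. The lack of overlap is therefore no result about the assembly factors.

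**Figure D3:**
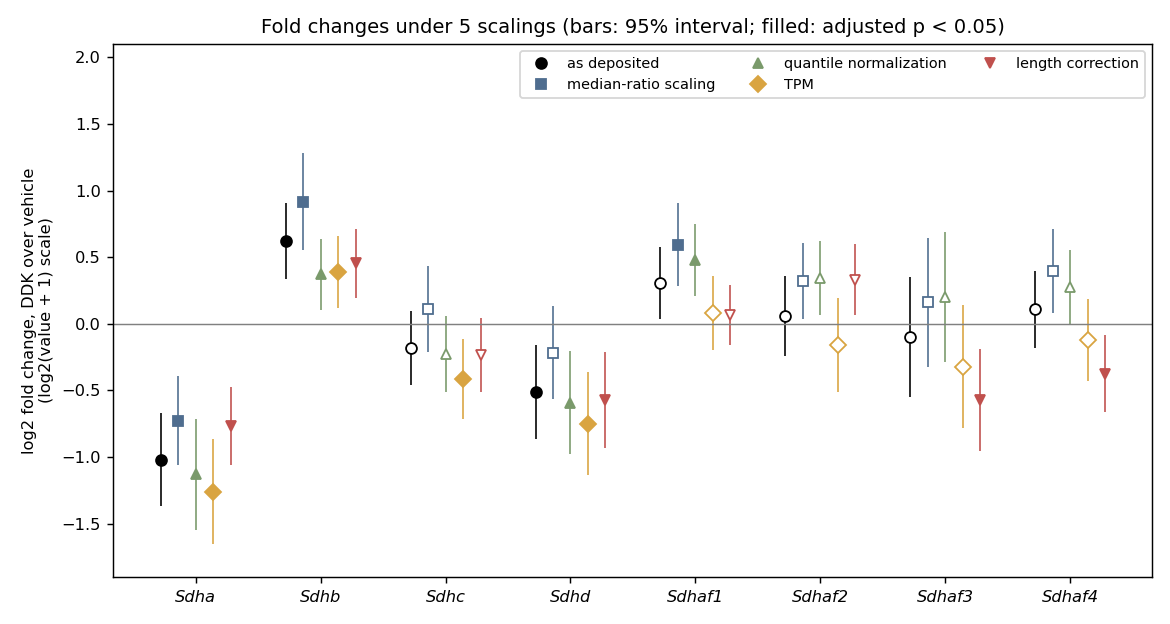
Log2 fold change, DDK over vehicle, of the 8 SDH genes with values as deposited and under 4 other scalings. Bars are 95% intervals from limma and filled symbols passed an adjusted p of 0.05. Sdha lies below 0 (-1.26 to -0.73) and Sdhb above 0 (0.37 to 0.92) under all 5 scalings, while Sdhc and 3 assembly factors (Sdhaf2, Sdhaf3 and Sdhaf4) lie on both sides of 0.

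Other scalings between libraries left the calls of Sdha and Sdhb in place and changed calls among the other members. After median-ratio scaling, which brought the median of all genes to -0.01, Sdha stood at -0.73, Sdhb at 0.92, Sdhc at 0.11 and Sdhd at -0.22, and 2 members were higher and 1 lower, with 34.2% of all genes called. Quantile normalization, which shifted members in different directions (Sdhb to 0.37, Sdhaf2 to 0.34), gave 2 higher and 2 lower (34.0% of all genes), and rescaling to TPM gave 1 higher and 3 lower (52.1%).

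Gene length also moved with the fold changes, across the whole table. The median log2 fold change was 0.41 for 665 genes under 1000 bp, -0.06 for 2095 genes of 1000 to under 2000 bp, -0.25 for 2186 genes of 2000 to under 3000 bp and -0.30 for 5735 genes of 3000 bp or more. Sdha has a length of 2859 bp behind its FPKM and Sdhb one of 1079 bp. After each library was corrected for length, Sdha stood at -0.76 (limma adjusted p = 0.00412) and Sdhb at 0.45 (0.0172), and the difference in their log2 ratio was -1.22 in place of -1.65. Sdhb, Sdhc (1295 bp) and Sdhd (1285 bp) are close in the length behind their FPKM, and their log2 fold changes were 0.62, -0.18 and -0.51. The part of gene length in the subunit differences was not tested. Among the assembly factors, Sdhaf1 (967 bp) stood at 0.31, Sdhaf2 (3097 bp) at 0.06, Sdhaf3 (676 bp) at -0.10 and Sdhaf4 (667 bp) at 0.11. After length correction Sdhaf3 (-0.57, adjusted p = 0.0308) and Sdhaf4 (-0.38, adjusted p = 0.0492) passed the test as lower, which made 1 member higher and 4 lower, with 33.4% of all genes called.

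**Figure D4:**
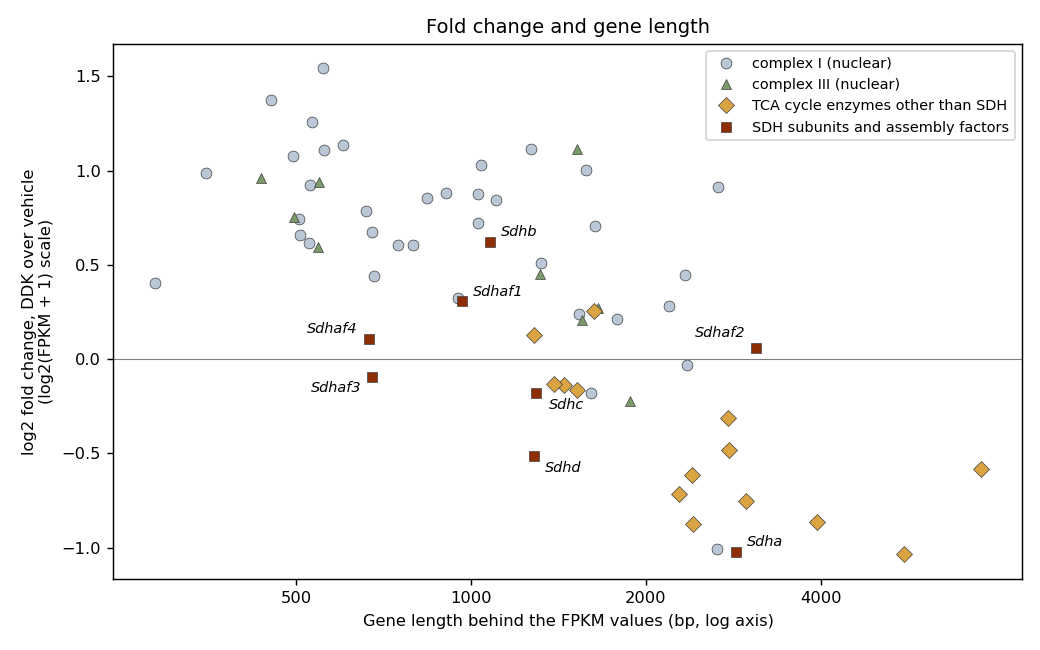
Log2 fold change, DDK over vehicle, against the gene length behind the FPKM values (bp, log axis) for the 8 SDH genes and for genes of complex I, complex III and the rest of the TCA cycle, 1 point per gene. Sdhb, Sdhc and Sdhd lie within 1079 to 1295 bp and spread from 0.62 to -0.51, and Sdha lies at 2859 bp and -1.02.

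The genes next to Sdha and Sdhd on the chromosome were set beside them. Ccdc127 starts 28 bp from Sdha on the opposite strand, and its promoter window holds the same 3 NRF1 matches. It had an FPKM of 0.928, 1.03 and 1.51 in DDK livers and of 1.87, 2.26 and 2.12 in vehicle livers and fell too (log2 fold change -0.53 ± 0.15 SE, limma adjusted p = 0.0185). The ratio of Sdha to Ccdc127 overlapped between groups, at 76.4 to 109.8 in DDK and 92.1 to 109.6 in vehicle. Timm8b, a small import chaperone of the mitochondrial intermembrane space, starts 97 bp from Sdhd, and their windows share 151 bases. It had an FPKM of 136, 122 and 137 in DDK livers and of 120.2, 103 and 91.1 in vehicle livers (log2 fold change 0.33 ± 0.14 SE, limma adjusted p = 0.0762), so that the ratio of Sdhd to Timm8b was 0.974, 0.920 and 1.20 in DDK and 1.47, 1.93 and 2.24 in vehicle. Both genes were named after their values were seen.

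**Figure D5:**
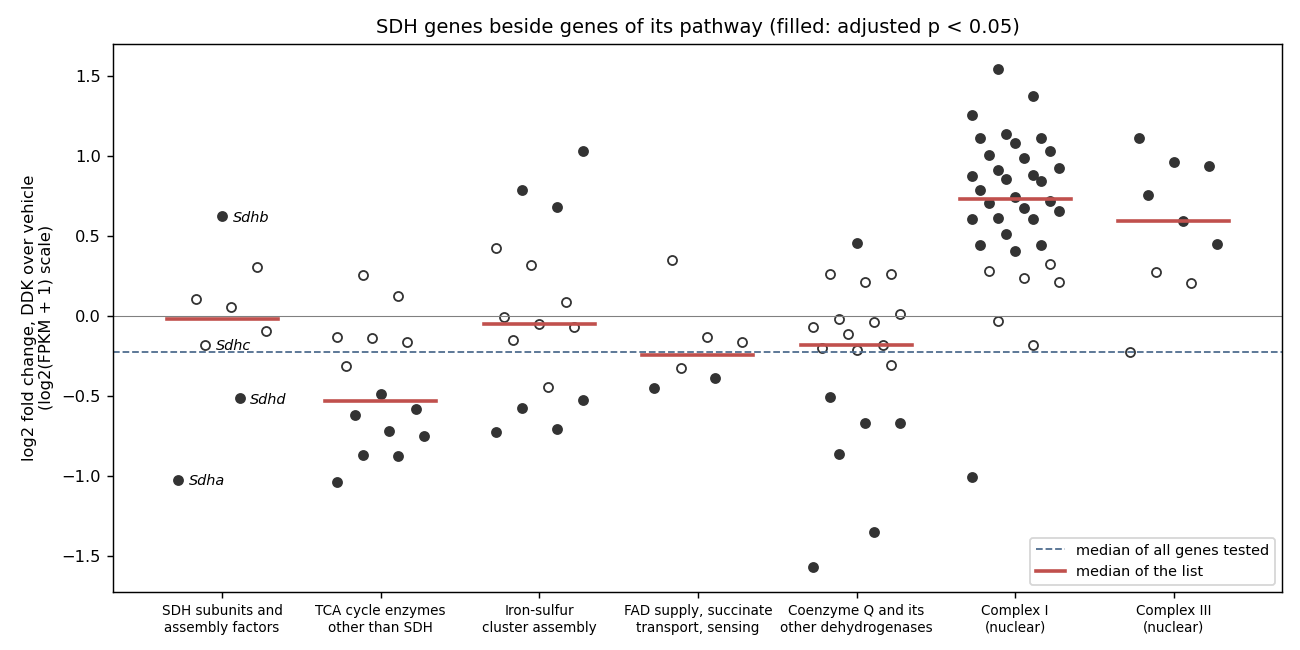
Log2 fold change, DDK over vehicle, of SDH genes and of 6 lists of genes of its pathway, 1 point per gene, filled where the adjusted p was under 0.05. Red lines are list medians and the dashed line is the median of all genes (-0.23). The SDH genes spread from -1.02 to 0.62, while TCA cycle enzymes have a median of -0.53 and complex I one of 0.73.

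Genes of the pathway around SDH were mixed in direction. Of 14 other TCA cycle enzymes, 8 fell and 0 rose, beside 30.3% lower and 10.2% higher among all genes. The median of the 14 was -0.53, beside -0.23 for all genes. Idh2, the mitochondrial NADP-dependent isocitrate dehydrogenase, fell to 18.5 ± 0.77 in DDK, against 39.1 ± 4.52 in vehicle (log2 fold change -1.04, limma adjusted p = 0.000911). Sucla2, a subunit of the succinyl-CoA ligase that makes succinate, fell to 35.9 ± 7.40 in DDK, against 66.4 ± 11.4 in vehicle (-0.87, adjusted p = 0.0054). Suclg2, the other nucleotide-specific subunit, fell by 0.87 as well. Of the genes next to SDH in the cycle, named for that place, 2 did not pass: Suclg1, the shared ligase subunit, averaged 226 ± 9.50 in DDK livers and 248 ± 5.27 in vehicle livers (limma adjusted p = 0.378), and Fh1, fumarase, which takes up the product of SDH, averaged 156 ± 1.40 in DDK livers and 131 ± 7.18 in vehicle livers (log2 fold change 0.26, adjusted p = 0.0995). After median-ratio scaling 4 of the 14 fell and 1 rose, beside 1727 lower and 1924 higher of all 10681 genes. After length correction 6 fell and 1 rose, beside 1844 lower and 1722 higher.

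Cofactor genes of SDH gave no common direction. Of 15 genes of iron-sulfur cluster assembly, which supplies SDHB, 3 rose and 4 fell (median -0.05), beside 10.2% higher and 30.3% lower among all genes. After median-ratio scaling 5 rose and 1 fell, beside 1924 higher and 1727 lower of all 10681 genes. Hscb, the co-chaperone that hands clusters to client proteins, rose to 11.8 ± 1.89 in DDK, against 5.26 ± 0.51 in vehicle (log2 fold change 1.03 ± 0.15 SE, limma adjusted p = 0.00168), and Fdxr, ferredoxin reductase, rose by 0.79 (adjusted p = 0.00419). Nfs1, the cysteine desulfurase, fell by 0.72 and Isca1, a late-acting assembly protein, fell by 0.71. Of 6 genes of FAD supply, succinate transport and sensing, 2 fell and 0 rose (median -0.24), namely riboflavin kinase, Rfk (-0.45, adjusted p = 0.0319), and the dicarboxylate carrier Slc25a10 (-0.38, adjusted p = 0.0372). After median-ratio scaling none of the 6 fell and 1 rose, beside the same 1924 higher and 1727 lower of all genes. The succinate receptor Sucnr1 stood at 15.4 ± 0.14 in DDK and 18.3 ± 7.23 in vehicle and did not pass.

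Genes that meet SDH at coenzyme Q included the largest decrease among these lists. Of 19 genes of coenzyme Q synthesis and of other dehydrogenases that reduce it, 1 rose and 6 fell (median -0.18), near the shares of all genes, 10.2% higher and 30.3% lower. After median-ratio scaling 3 rose and 4 fell, beside 1924 higher and 1727 lower of all 10681 genes. Etfdh, which passes electrons from fatty acid oxidation to coenzyme Q, had an FPKM of 59.0, 56.2 and 78.3 in DDK livers and of 146, 215 and 222 in vehicle livers (log2 fold change -1.57 ± 0.19 SE, limma adjusted p = 0.000776). As with Sdha, vehicle replicate 1 was the lowest vehicle liver and the groups did not overlap. Gpd2, the mitochondrial glycerol-3-phosphate dehydrogenase, fell by 1.35, and Coq3, a methyltransferase of coenzyme Q synthesis, rose by 0.46.

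The neighbouring complexes of the chain stood higher. Of 36 nuclear subunits of complex I, 29 rose and 1 fell (median 0.73), beside 10.2% higher and 30.3% lower among all genes. Of 9 of complex III, 6 rose and 0 fell (median 0.59). The genes of both complexes are mainly short, with median lengths of 874.5 bp in complex I and 1313 bp in complex III. Among all genes under 1000 bp, 46.8% were higher and 9.02% lower, and among those of 1000 to under 2000 bp 18.6% and 22.2%. After length correction 20 rose and 2 fell in complex I and 4 rose and 0 fell in complex III. Among all 10681 genes, 1722 were then higher and 1844 lower. Ndufa5 (1.54) and Ndufb4 (1.37) rose most in complex I. The member that fell was Ndufs1, the largest iron-sulfur subunit, with a length of 2654 bp (24.4 ± 3.01 in DDK and 51.5 ± 15.3 in vehicle, log2 fold change -1.01, limma adjusted p = 0.00618). Uqcrq (1.11) and Uqcr11 (0.96) rose most in complex III.

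A spread between subunits was not found in SDH alone. The log2 fold changes of the 4 SDH subunits spanned 1.64 with an SD of 0.69 between subunits. The span was 0.48 for the 3 subunits of isocitrate dehydrogenase 3, 0.23 for Ogdh, Dlst and Dld of the oxoglutarate dehydrogenase complex and 0.74 for the 3 subunits of succinyl-CoA ligase. It was 1.33 in complex III (SD 0.43) and 2.55 in complex I (SD 0.48), which have more subunits. Whether these spreads differ was not tested. The SD of log2 levels among the SDH subunits was 0.61 to 0.88 in DDK livers and 0.15 to 0.20 in vehicle livers. In complex III it was 0.79 to 1.02 in DDK and 0.43 to 0.70 in vehicle, and in complex I 1.04 to 1.15 and 0.84 to 0.94. It was 1.21 to 1.47 in DDK and 0.88 to 1.12 in vehicle for succinyl-CoA ligase. For isocitrate dehydrogenase 3 it was 1.63 to 1.71 and 1.38 to 1.44. For the oxoglutarate dehydrogenase complex the groups overlapped, at 0.81 to 0.87 in DDK and 0.69 to 0.94 in vehicle. These SDs of levels depend on the gene lengths behind the FPKM.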

How the data were processed

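Liver RNA of 6 mice was sequenced after library preparation with the NEBNext Ultra RNA kit, per the labels' protocols. The authors deposited FPKM per gene symbol and library, on GRCm38 (mm10) per the submitters' processing notes. The sources used here name no aligner, counting program or annotation. Nothing says how fragments matching several genes were counted. Each library took its group from its title, and the labels do not say more about how the mice were housed or drawn.

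Whole library totals and gene lengths were found under which 99.997% of the values above 0 were whole fragments, within 0.01 of a fragment. FPKM values are not counts, so limma 3.58.1 (R 4.3.3) tested log2(FPKM + 1), which understates changes of low genes, with a variance trend, for genes that reached an FPKM of 0.5 in 3 or more libraries. P-values were two-sided and adjusted by Benjamini-Hochberg over 10681 genes, with a threshold of 0.05. Errors are SE from limma or SD over 3 livers. Subunit ratios used exact permutation of the 6 livers and FPKM without a pseudocount. The fits were tested on simulated data. Positions are from GENCODE M21 (GRCm38) and promoters from RefSeq (GRCm38.p6). Motif matching used Python 3.11.15.

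The members, lists and tests were chosen with earlier results of these data known. Genes named by rule were the 8 members, the 2 largest changes per direction and list among genes past the threshold, genes that overlap a member, and the 3 profiles nearest to Sdha and to Sdhb. Suclg1, Suclg2, Fh1, Sucnr1, Ccdc127 and Timm8b fall outside that rule and were named after their values were seen. Alternatives were pseudocounts of 0.1 and 0.5, no filter, a filter at 1, median-ratio scaling, quantile normalization, TPM, length correction (lowess, span 0.3), library weights, no variance trend, robust moderation, voom on the recovered fragments, the replicate number as a block, and each library left out.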

Additional observations from a re-analysis of the deposited data

How the results depend on the processing

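Sdha kept its fall and Sdhb its rise in all 19 alternatives. Calls across the whole table numbered 4327, and 2348 to 5686 with 1 library left out, the lowest without DDK replicate 2 (2796 without DDK replicate 1 and 2490 without vehicle replicate 3). As deposited, 1093 genes were higher and 3234 lower. Median-ratio scaling gave 1924 higher and 1727 lower, quantile normalization 1886 higher and 1743 lower, TPM 631 higher and 4929 lower, and length correction 1722 higher and 1844 lower. The voom fit called 4239 genes. SDH genes called numbered 3, 5 after length correction, and 2 to 4 with 1 library left out. The log2 fold change of Sdhc was 0.11 after median-ratio scaling. That of Sdhaf2 was -0.16 under TPM and -0.022 without DDK replicate 1, its lowest with 1 library left out (highest 0.11). That of Sdhaf3 was 0.16 after median-ratio scaling, 0.20 after quantile normalization, 0.027 with library weights, 0.06 without DDK replicate 2 and 0.10 without vehicle replicate 1, and at the lowest -0.21 without vehicle replicate 3. That of Sdhaf4 was -0.12 under TPM and -0.38 after length correction. The cause of these turns was not tested. Median-ratio scaling left 5 TCA cycle genes called (8 as deposited), and quantile normalization left 3 of complex III (6 as deposited). The 6 genes of FAD supply and succinate had 2 calls as deposited, 1 without a filter, after median-ratio scaling, after length correction and with the block, and 4 with library weights. With 1 library left out, calls ranged from 0 to 4 in that list, 3 to 10 for iron-sulfur assembly, 7 to 9 for the TCA cycle, 5 to 8 for coenzyme Q, 23 to 33 for complex I and 4 to 7 for complex III. The difference in the log2 ratio of Sdha to Sdhb was -1.81 to -1.56 with 1 library left out, that of the highest to the lowest subunit 1.27 to 1.503, and that of the Sdha share -14.1 to -11.4 percentage points (-8.31 after length correction). In the limma ratio fits, the log2 change with 1 library left out was 1.55 to 1.80 for Sdhb over Sdha, 0.77 to 0.96 for Sdhc over Sdha, 0.43 to 0.60 for Sdhd over Sdha, -0.93 to -0.72 for Sdhc over Sdhb, -1.35 to -0.95 for Sdhd over Sdhb and -0.42 to -0.19 for Sdhd over Sdhc. Correlations of the deviations of same-numbered livers were 0.14, -0.15 and 0.06, within the -0.21 to 0.21 of differently numbered livers. With 3 livers a group these values cannot decide whether the numbers pair the livers, and the labels do not say. With the replicate number as a block, 4134 genes and 3 SDH genes were called, Sdhd over Sdha stood at 0.51 (adjusted p = 0.0637), and the sign-flip p of the Sdha to Sdhb ratio was 0.25, the smallest that 3 pairs allow. With 3 livers a group, p-values measure only the spread between these livers. Counting error matters most for Sdhaf3, at 105 to 266 fragments.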

Other observations

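Among all genes tested, those whose log2(FPKM + 1) profile over the 6 livers lay nearest to that of Sdha, each centred on its own mean, were Srpr, which encodes a subunit of the signal recognition particle receptor, at a root mean square distance of 0.0326, Ppp2ca, a catalytic subunit of protein phosphatase 2A, at 0.0447, and Fam20b, a xylose kinase of proteoglycan synthesis, at 0.0475. Srpr had an FPKM of 31.4, 28.4 and 33.9 in DDK livers and of 51.9, 75.4 and 69.4 in vehicle livers, so that vehicle replicate 1 was the lowest vehicle liver, as for Sdha. Nearest to Sdhb were Prkrip1 (0.0456), Pipox, a peroxisomal pipecolic acid and sarcosine oxidase (0.0479), and Pan3, a subunit of a poly(A) nuclease (0.0561). Pipox had an FPKM of 169.5, 193 and 166 in DDK livers and of 113, 120.4 and 110.3 in vehicle livers. With 2 groups of 3 livers, any gene with a like difference between groups has a like profile, so nearness describes these livers only.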
